A study of Mus musculus with 4 samples.

Results

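The 8 genes that carry propionyl-CoA to succinyl-CoA were followed across 4 Affymetrix arrays of mouse gastrocnemius, a mainly fast-fibre muscle of the calf. They were chosen by name for their place in the pathway, but with earlier results of these arrays known. They are 8 of the 22180 genes that the array reads through a cluster with a single gene symbol. Each of the 8 was read by 1 transcript cluster, and all 8 passed the level filter that kept 13258 genes. One array was made for each of 4 groups, so n = 1 per group throughout, no test was run, and the spread between animals is unknown. They were wild-type (WT) mice injected with citrate vehicle, WT mice given streptozotocin (STZ), and the same pair of treatments in knockout (KO) mice whose gene for the transcription factor KLF15 was deleted in skeletal muscle specifically. STZ, which kills insulin-producing beta cells, was given at 50 mg/kg on 5 days, and muscle was collected 3 weeks later. The promoter that drives the deletion, the age of the mice and the number of animals behind each array are not stated in the labels. Where 4 intensities are listed for a gene below, the order is vehicle and then STZ within each genotype.

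Propionyl-CoA is the acyl-CoA left at the end of valine, isoleucine, methionine and threonine breakdown and of odd-chain fatty acid oxidation. In the mitochondrial matrix it is carboxylated by propionyl-CoA carboxylase, a biotin enzyme built of alpha (Pcca) and beta (Pccb) subunits. The product is turned by methylmalonyl-CoA epimerase (Mcee) and then rearranged by methylmalonyl-CoA mutase (Mmut) into succinyl-CoA, which enters the citric acid cycle. The mutase needs adenosylcobalamin, a form of vitamin B12. Mmachc strips the upper ligand from incoming cobalamin, Mmadhc directs it between cytosol and mitochondrion, Mmab attaches the adenosyl group, and Mmaa is a GTPase chaperone that loads and protects the mutase. In humans, loss of these genes causes propionic or methylmalonic acidaemia. KLF15 is known as an activator of amino acid breakdown genes.

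Klf15 itself read 50.5 under vehicle and 72.1 under STZ in WT, and 19.8 and 16.04 in KO on the linear intensity scale, so both KO arrays went with their labels, although the position of its cluster relative to the deletion is unknown here. All 9 fibre markers, such as Ckm, Acta1 and Myh4, passed the level filter, with the lowest of the 9 at 1889 or more on every array. Array medians lay between 5.73 and 5.96. Differences are given as log2(intensity + 3.69), which understates changes of dim genes. Genes above percentile 75 of level, which include all 8 pathway genes, had a median difference of -0.11 for KO minus WT under STZ and of -0.014 under vehicle. In bulk tissue, fewer cells of a type and less RNA per cell cannot be told apart.

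The mutase and the beta subunit of the carboxylase were lower on both KO arrays, and the epimerase was lower in KO only when the STZ arrays were compared. Under vehicle, 1 of the 8 genes (Mmut) was at least 1.5-fold lower in KO, where 0.777% of the 13258 genes were, and 0 were at least 1.5-fold higher, where 0.581% of all were. Under STZ, 2 of the 8 (Mmut and Mcee) were at least 1.5-fold lower, where 2.81% of all genes were, and 0 were higher, where 0.845% were. Of the genes above percentile 75 of level, 4.08% were at least 1.5-fold lower under STZ. Below 0 were 6 of the 8 under vehicle, as were 50.8% of all genes, and 8 of the 8 under STZ, as were 58.1%, although Pcca turned to 0.15 under STZ after quantile normalization and to 0.13 once a lowess trend was taken out. The median of the 8 log2 differences was -0.084 under vehicle, beside -0.0039 over all genes kept, and -0.32 under STZ, beside -0.048. All 8 had their lowest value on the KO STZ array, and 6 of the 8 did under quantile normalization or lowess. It was the lowest array for 33.5% of all genes and for 41.3% of those above percentile 75 of level.

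**Figure D1:**
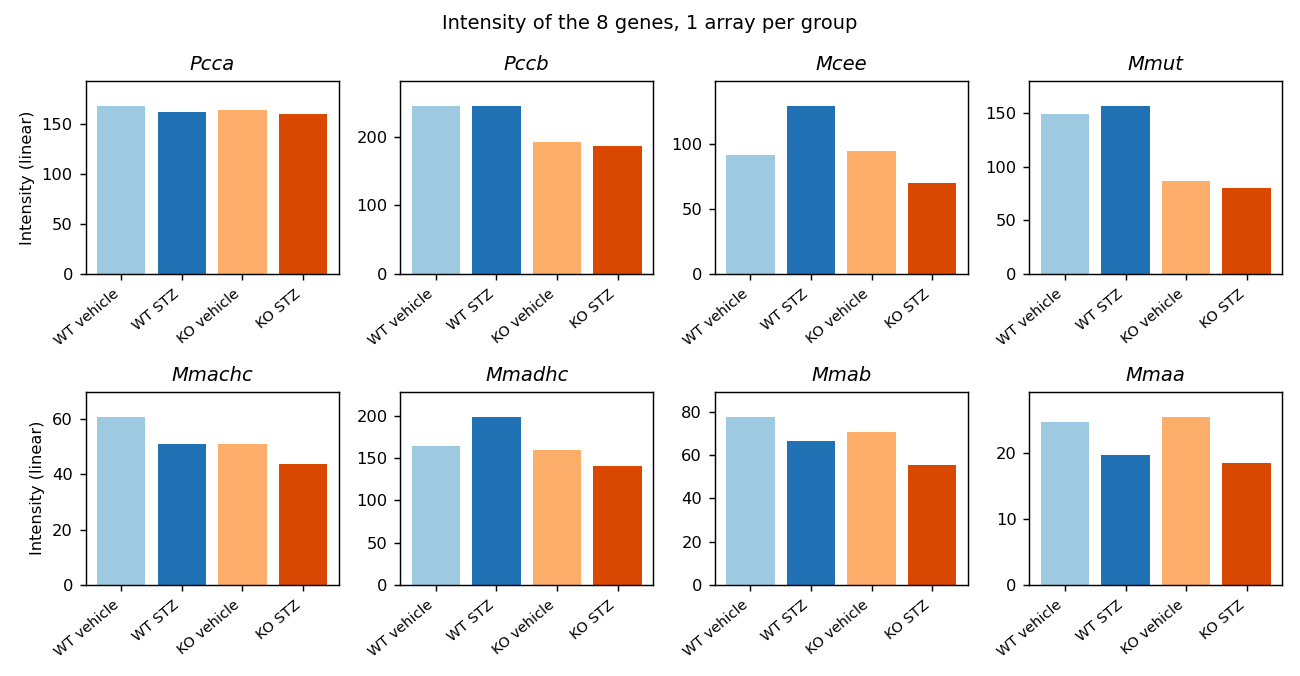
Linear intensity of each of the 8 genes on each array (bars, from 0; 1 array per group, so no error bars). Mmut and Pccb are lower on both KO arrays than on both WT arrays, Mcee peaks at 129 in WT STZ, and the 4 values of Pcca lie between 160.2 and 168.

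The 2 carboxylase subunits had unlike differences between the genotypes. Pcca, the biotin-carrying alpha subunit, read 168 under vehicle and 162 under STZ in WT, and 164 and 160.2 in KO. It had the smallest log2 range of the 8 genes as deposited, 0.067 over the 4 arrays. Pccb, the beta subunit that holds the carboxyltransferase site, read 244 under vehicle and 245 under STZ in WT, and 193 and 187 in KO. Its 2 KO values lay below its 2 WT values, with KO at 78.9% (vehicle) and 76.4% (STZ) of WT. Both KO values lay below both WT values in 23.9% of all genes, and in 30.9% of those above percentile 75 of level. They did in 4 of the 8 pathway genes (Pccb, Mmut, Mmachc and Mmadhc), of which lowess left Pccb and Mmut alone. Both lay above in 15.8% of all genes and in 0 of the 8, or in 1 (Pcca) under quantile normalization or lowess. The log2 difference of Pccb, KO minus WT, was -0.34 under vehicle and -0.38 under STZ, and the latter shrank to -0.19 under quantile normalization.

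The change of Pccb relative to Pcca can be read within each array, where any common scaling factor cancels. The log2 ratio of Pccb to Pcca signal was 0.53 in WT vehicle and 0.58 in WT STZ, against 0.23 in KO vehicle and 0.22 in KO STZ. KO minus WT, this ratio changed by -0.30 under vehicle and -0.36 under STZ, and over the alternatives it ranged from -0.30 to -0.27 and from -0.37 to -0.34. The ratio sets signals of different probes side by side, so its level has no meaning in molecules, and only its change between arrays is read.

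Promoter sequence from RefSeq (GRCm38.p6, 250 bases before to 50 after an annotated start) was matched for 6 of the 8 genes, all but Mmut and Mmadhc, in 8 windows. It is shown for the subunit pair, because they differed, and for Mcee and Mmachc, whose windows are described here. CACCC, the core of the box that Kruppel-like factors are known to bind, was searched on both strands (GGGTG on the other strand), as was ACTACANNTCCC, the element bound by THAP11 and ZNF143, which in human cells act on MMACHC. Capitals mark these 2 motifs.
Pccb, chr9:101034835-101035134 on the minus strand: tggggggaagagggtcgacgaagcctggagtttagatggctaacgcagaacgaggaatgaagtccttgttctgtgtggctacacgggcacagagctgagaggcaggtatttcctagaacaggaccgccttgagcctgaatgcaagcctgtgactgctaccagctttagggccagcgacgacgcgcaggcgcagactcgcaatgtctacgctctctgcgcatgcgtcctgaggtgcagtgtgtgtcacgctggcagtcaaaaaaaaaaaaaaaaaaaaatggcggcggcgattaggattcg
Pcca, chr14:122534078-122534377 on the plus strand: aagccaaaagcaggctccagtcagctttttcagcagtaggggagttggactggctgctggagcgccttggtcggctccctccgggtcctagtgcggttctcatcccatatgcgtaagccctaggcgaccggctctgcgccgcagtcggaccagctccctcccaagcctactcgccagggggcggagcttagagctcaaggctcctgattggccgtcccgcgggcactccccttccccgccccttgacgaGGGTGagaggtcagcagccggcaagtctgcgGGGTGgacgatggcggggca
Mcee, chr7:64392372-64392671 on the plus strand: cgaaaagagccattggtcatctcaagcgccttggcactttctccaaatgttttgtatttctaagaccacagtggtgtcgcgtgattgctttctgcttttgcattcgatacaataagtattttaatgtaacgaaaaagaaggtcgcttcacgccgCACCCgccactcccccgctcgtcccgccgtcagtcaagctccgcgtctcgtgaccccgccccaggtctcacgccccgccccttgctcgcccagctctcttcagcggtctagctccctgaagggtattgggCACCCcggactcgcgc
Mmachc, chr4:116708336-116708635 on the minus strand: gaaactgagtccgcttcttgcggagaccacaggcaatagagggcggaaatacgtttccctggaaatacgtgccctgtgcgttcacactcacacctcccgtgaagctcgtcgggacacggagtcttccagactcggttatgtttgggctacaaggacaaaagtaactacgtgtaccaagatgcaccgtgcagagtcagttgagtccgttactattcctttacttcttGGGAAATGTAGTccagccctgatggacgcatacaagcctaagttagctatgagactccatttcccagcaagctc
CACCC was found in 6 of the 8 windows, which belong to 4 of the 6 matched genes, and in 57.5% of the 32851 windows of all genes. Its presence is thus common. The Pccb window holds no match, while both Pcca windows, the one shown and one at another start, hold 2 each. The THAP11 and ZNF143 element was found in 1 of the 8 windows, that of Mmachc, and in 1.81% of all windows. The GC box GGGCGG, read on the other strand as CCGCCC, was found in 6 of the 8 windows and in 35.7% of all. Its matches may share bases with a CACCC match. Those 6 windows belong to 5 of the 6 matched genes. The 2 windows of Mmaa overlap and hold 76% and 73.3% G and C, beside a median of 52.7% over all windows. A match is a description of letters and shows no binding.

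Mmut, the mutase that makes succinyl-CoA, had the largest genotype difference of the 8 under both treatments. It read 149 under vehicle and 156 under STZ in WT, and 86.2 and 79.9 in KO. The 2 KO arrays stood well below the 2 WT arrays, and STZ moved the gene little in either genotype. The KO signal was 57.7% (vehicle) and 51.1% (STZ) of WT. The log2 difference was -0.77 under vehicle, which is rank 37 from the lowest of 13258 genes, and -0.94 under STZ, which is rank 50. At least 1.5-fold lower in KO under both treatments were 32 genes (0.241%), and Mmut was the only one of the 8 pathway genes among them.

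Mcee, the epimerase one step before the mutase, behaved otherwise. It read 91.6 under vehicle and 129 under STZ in WT, and 94.4 and 69.6 in KO. The vehicle arrays were close to each other, and the STZ arrays lay on either side of them. KO minus WT was 0.042 under vehicle and -0.86 under STZ (rank 77 from the lowest), with KO at 54.0% of WT in the latter. STZ minus vehicle was 0.48 in WT and -0.42 in KO. Subtracting the WT from the KO effect of STZ gave -0.90, rank 66 from the lowest, and Mcee was the 1 of the 8 genes past 1.5-fold in this comparison, where 3.91% of all genes were on the lower side and 1.76% on the higher side. Within each array, the log2 ratio of Mmut to Mcee was 0.68 under vehicle and 0.27 under STZ in WT, and -0.13 and 0.19 in KO.

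**Figure D2:**
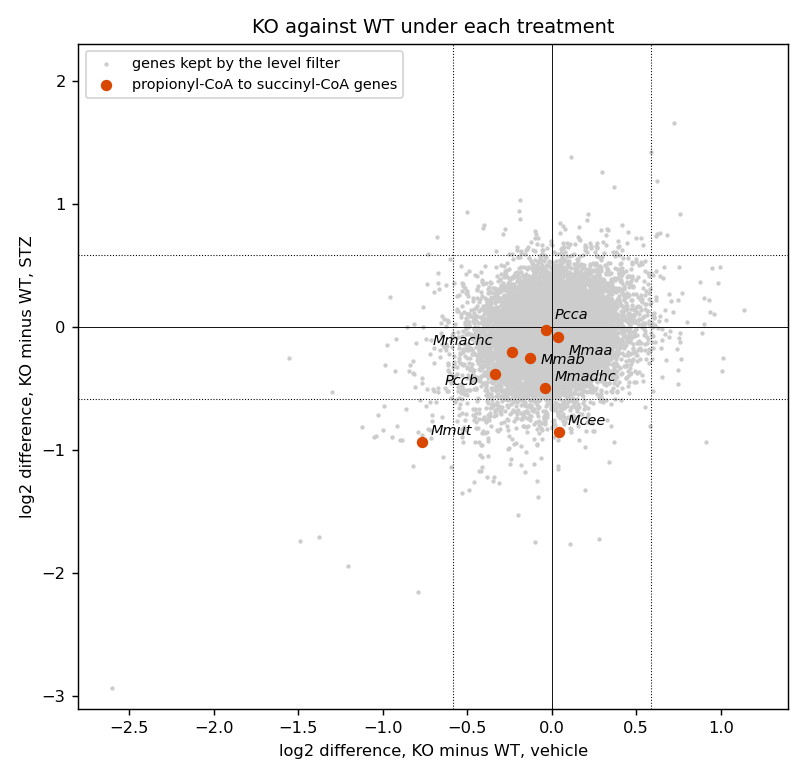
Log2 difference KO minus WT under vehicle (x) and under STZ (y) for 13258 genes (grey) and the 8 pathway genes (orange), 1 array per group, with dotted lines at 1.5-fold. Mmut lies past 1.5-fold on both axes, at -0.77 and -0.94, and Mcee only on the STZ axis, at -0.86.

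Of the cobalamin genes, Mmadhc came nearest to 1.5-fold. Mmadhc, which steers cobalamin towards mitochondrion or cytosol, read 164 under vehicle and 199 under STZ in WT, and 160.2 and 141 in KO. The vehicle arrays were close to each other and the STZ arrays lay on either side of them, as for Mcee. KO minus WT was -0.037 under vehicle and -0.49 under STZ, where KO stood at 70.6% of WT, and -0.31 under quantile normalization. STZ minus vehicle was 0.27 in WT and -0.18 in KO.

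Mmachc, the first cytosolic enzyme of cobalamin processing, read 60.8 under vehicle and 51.2 under STZ in WT, and 51.1 and 43.9 in KO. WT STZ and KO vehicle were practically equal, and the KO and WT values were separated by a margin of only 0.054 intensity units. KO minus WT was -0.24 under vehicle and -0.20 under STZ (-0.10 under quantile normalization). STZ minus vehicle was -0.23 in WT and -0.20 in KO.

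Mmab, the adenosyltransferase that completes the cofactor, read 77.7 under vehicle and 66.7 under STZ in WT, and 70.7 and 55.4 in KO. Both STZ arrays were below both vehicle arrays. STZ minus vehicle was -0.21 in WT and -0.33 in KO, and KO minus WT was -0.13 under vehicle and -0.25 under STZ.

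Mmaa, the chaperone of the mutase, read 24.8 under vehicle and 19.7 under STZ in WT, and 25.6 and 18.5 in KO. Its values split by treatment and not by genotype. STZ minus vehicle was -0.28 in WT and -0.40 in KO, while KO minus WT was 0.037 under vehicle and -0.077 under STZ. Both STZ values lay below both vehicle values for 3 of the 8 genes (Pcca, Mmab and Mmaa), as they did for 18.2% of all genes, and above them for 0 of the 8 and 13.1% of all. For Pcca the margin was 1.5 intensity units, and its STZ minus vehicle value in KO turned to 0.040 under quantile normalization.

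STZ against vehicle gave no difference of 1.5-fold or more in any of the 8 genes in either genotype. In WT, 0.445% of all genes were at least 1.5-fold lower and 1.27% at least 1.5-fold higher, and in KO these shares were 0.656% and 0.445%. The median of the 8 was -0.023 in WT, with 4 below 0, as were 48.3% of all genes, and -0.19 in KO, with 8 below 0, where 57% of all genes were, although under quantile normalization Pcca (0.040) and Pccb (0.022) lay above 0. The WT comparison and the KO comparison share no array. In 4 of the 8 genes (Pccb, Mcee, Mmut and Mmadhc) STZ was above vehicle in WT and below it in KO, as in 28.6% of all genes, and for Pccb the WT value was only 0.0015 and turned to -0.059 under quantile normalization, as that of Mmut turned to -0.012.

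**Figure D3:**
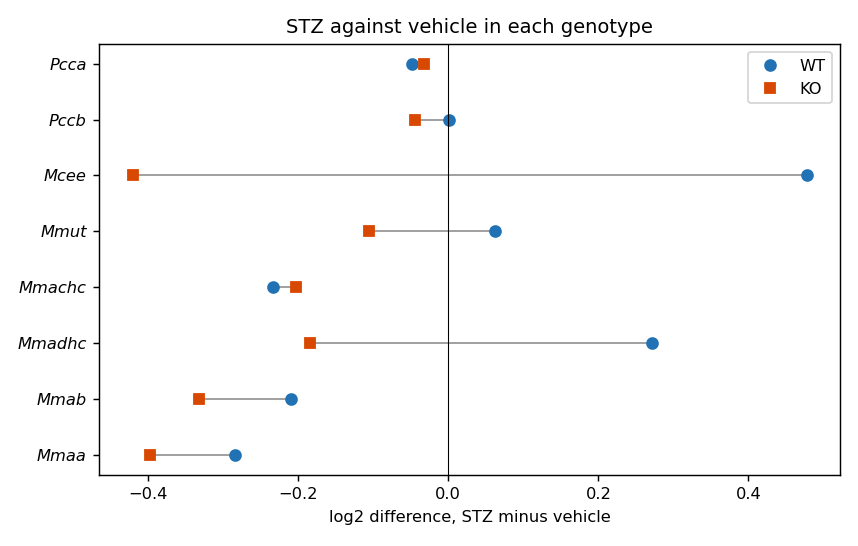
Log2 difference STZ minus vehicle for each of the 8 genes in WT (circles) and KO (squares), 1 array per group. Mcee spans from -0.42 in KO to 0.48 in WT and Mmadhc from -0.18 to 0.27, while both points of Mmaa, Mmab and Mmachc lie below 0.

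Genes that supply the pathway were compared as a list of 13 enzymes of valine and isoleucine breakdown, all measured. In KO vehicle 4 of 13 were at least 1.5-fold lower than in WT, where 0.777% of all genes were, and 0 were higher. The median was -0.501. Under STZ 4 of 13 were lower, where 2.81% of all genes were, and 0 were higher. The median under STZ was -0.51, which shrank to -0.31 under quantile normalization and to -0.37 with the lowess trend taken out. Both KO values lay below both WT values in 11 of the 13. They did in 23.9% of all genes and in 30.9% of those above percentile 75 of level. Aldh6a1, the methylmalonate semialdehyde dehydrogenase that makes propionyl-CoA from valine, read 368 under vehicle and 381 under STZ in WT, and 129 and 112 in KO, which gives -1.49 and -1.74. Bckdhb, a subunit of the keto acid dehydrogenase that commits branched chains to breakdown, stood at -0.998 and -0.84, Dbt, its transacylase, at -0.72 and -0.83, and Bcat2, the aminotransferase of the first step, at -0.64 and -1.06. Below 1.5-fold, Echs1, an enoyl-CoA hydratase, stood at -0.51 and -0.54, Acadsb, which dehydrogenates the isoleucine product, at -0.50 and -0.51, and Acat1, the thiolase that releases propionyl-CoA from isoleucine, at -0.39 and -0.55. The list was drawn up with earlier results of these arrays known, so its direction is not independent evidence.

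Other genes that use biotin were mixed. Of 6 measured, 0 were at least 1.5-fold different under vehicle and 1 was lower under STZ, where 2.81% of all genes were. The medians were -0.11 and -0.093, the latter 0.046 under quantile normalization. That 1 was Mccc2, the non-biotin subunit of the leucine enzyme methylcrotonyl-CoA carboxylase, at -0.41 under vehicle and -0.85 under STZ. Mccc1, its biotin-carrying partner, stood at -0.53 and -0.58, so there the 2 subunits of a carboxylase were both lower, unlike Pcca and Pccb. Pcx, the pyruvate carboxylase, stood at -0.32 and -0.16, and Hlcs, the ligase that attaches biotin, at 0.35 and 0.094.

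Genes of cobalamin transport and of methionine synthesis, the other cobalamin-dependent reaction, did not reach 1.5-fold in either KO comparison. Of 9 measured, 7 passed the level filter, and Lrp2 and Cubn, receptors known from kidney, did not. The median of the 7 was 0.024 under vehicle and -0.21 under STZ. Cd320, the receptor for transcobalamin-bound cobalamin, stood at -0.28 and -0.36, Lmbrd1, a lysosomal cobalamin exporter, at -0.21 and -0.21, and Tcn2, the plasma carrier, at 0.15 and -0.405. Hcfc1 and Thap11, regulators of MMACHC in human cells, stood at 0.21 and -0.028 under vehicle and at 0.046 and 0.28 under STZ, in that order.

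Beyond succinyl-CoA, 9 citric acid cycle genes had medians of -0.039 under vehicle and -0.201 under STZ, with 0 past 1.5-fold, and these turned to 0.021 and 0.0076 under quantile normalization. Suclg2, the GTP-forming beta subunit of succinyl-CoA synthetase, stood at -0.039 and -0.57, Sucla2, its ATP-forming counterpart, at -0.087 and -0.33, and Sdhb, of succinate dehydrogenase, at -0.15 and -0.31. Suclg2 was read by the brighter of 2 clusters, and with the mean of all clusters the vehicle median of the 9 was 0.026. Under median centring 1 of the 9 was at least 1.5-fold lower under STZ, where 3.41% of all genes were. A list of 10 general mitochondrial genes had medians of -0.0051 and -0.068, with 0 past 1.5-fold. These medians turned to 0.041 and 0.096 under quantile normalization. Among them stood Hspd1, a chaperonin, at -0.21 and -0.27, Tomm20, an import receptor, at 0.026 and -0.42, and Ndufs1, of complex I, at -0.062 and -0.14. Side enzymes of propionate were at -0.17 and -0.30 for Acss3, a propionyl-CoA synthetase, at 0.0084 and -0.34 for Crat, the carnitine acetyltransferase, and at 0.24 and 0.0062 for Acsf3, a malonyl-CoA synthetase.

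**Figure D4:**
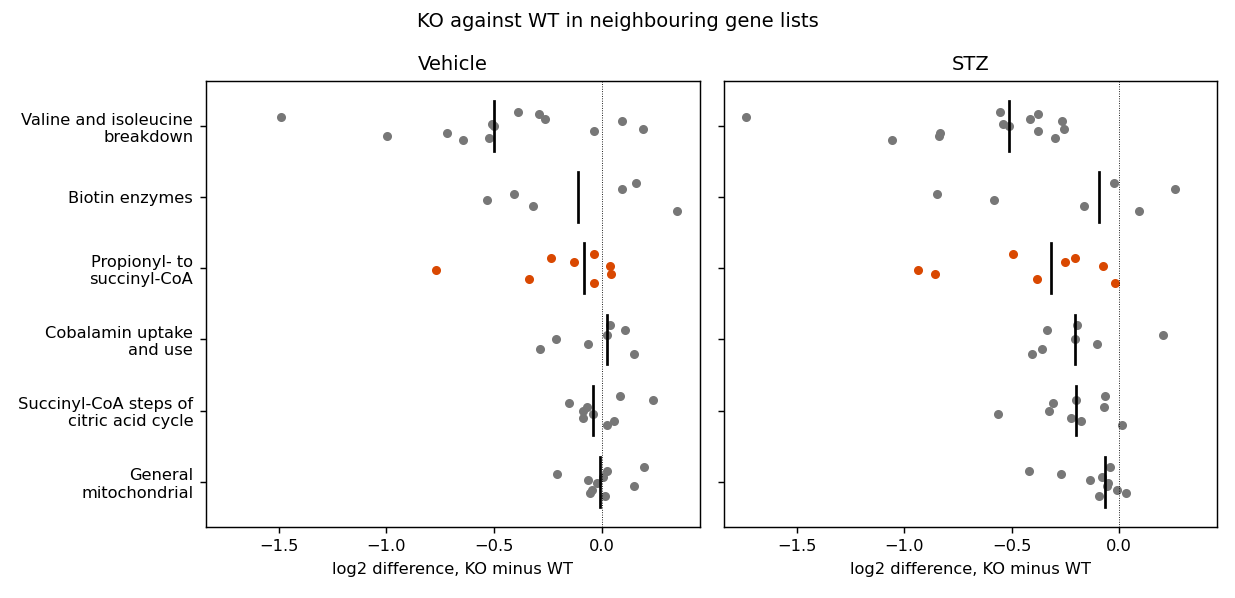
Log2 difference KO minus WT under vehicle (left) and STZ (right) for genes of 6 lists kept by the level filter (points) with each list's median (bars), 1 array per group. Supply genes have medians of -0.501 and -0.51, the pathway genes (orange) -0.084 and -0.32, and general mitochondrial genes -0.0051 and -0.068. Under quantile normalization (not drawn) the STZ medians of these lists were -0.31, -0.15 and 0.096.

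Markers of other cells and fibre types also differed between these arrays. The 8 slow fibre genes, all above the level filter, had summed intensities of 1610 under vehicle and 1667 under STZ in WT, and 1318 and 1068 in KO, with medians of -0.33 and -0.52 for KO minus WT under vehicle and STZ. Under STZ 3 of the 8 were at least 1.5-fold lower in KO, where 2.81% of all genes were. They were the slow troponins Tnni1 (-1.32) and Tnnc1 (-1.04) and the tropomyosin Tpm3 (-0.81). The list was not uniform. Of the 8, 2 were above 0 under vehicle, Myl3 (0.22) and Myl2 (0.11), which stood at -0.48 and -0.069 under STZ. Of 6 adipocyte markers, 5 passed the level filter and Lep did not, and their summed intensities were 1093, 1363, 1108 and 882 in the same order. Adipoq, which defines adipocytes, read 14.8, 17.5, 18.9 and 12.1. Under STZ, 2 of the 5 were at least 1.5-fold lower in KO, beside the same 2.81% of all genes. They were the lipid carrier Fabp4 (-0.64) and the lipid droplet protein Plin1 (-0.63). The arrays had the same order from high to low for the adipocyte sums as for Mcee, but that order rests on Fabp4, which gives most of the sum: without it the sums were 160 under vehicle and 169 under STZ in WT, and 196 and 119 in KO. The order of the slow fibre sums was that of Mmut and Pccb as deposited, also without Atp2a2, the brightest slow fibre gene. For Pccb that order rests on a WT difference of only 0.0015 between STZ and vehicle. Under quantile normalization this difference turned to -0.059 for Pccb and to -0.012 for Mmut, so the order of both genes changed. Of 6 fibroblast markers, the collagens Col1a1 (0.76 under vehicle, 0.92 under STZ) and Col3a1 (0.64 and 0.76) were at least 1.5-fold higher in KO. Of all genes, 0.581% were under vehicle and 0.845% under STZ. At least 1.5-fold lower were 0 of the 6. The others, Pdgfra, Dpt, Dcn and Lum, stood at 0.27, -0.028, -0.043 and 0.068 under vehicle. Under STZ these 4 were all below 0, at -0.069, -0.11, -0.24 and -0.033. The summed fibroblast intensities were 2876 under vehicle and 3144 under STZ in WT, and 3295 and 3356 in KO. The part of these cells and fibres in the results was not tested. Summed endothelial markers read 566 under vehicle and 546 under STZ in WT, and 675 and 630 in KO. In the same order, tendon markers summed to 244, 276, 302 and 330, and macrophage markers to 137, 137, 142 and 154. These sums were higher on both KO arrays than on both WT arrays, and their part in the results was not tested either. Single markers were less uniform. Both KO values lay above both WT values in 4 of 5 endothelial, 2 of 4 tendon and 1 of 5 macrophage markers. They did in 15.8% of all genes. The macrophage marker Adgre1 went the other way, at 10.8 under vehicle and 10.7 under STZ in WT, and 8.37 and 7.17 in KO. Summed markers ranged over the 4 arrays from 579 to 687 for smooth muscle and from 42.0 to 50.2 for satellite cells. Of 3 nerve markers 1 was matched, Mbp, which read from 13.3 to 14.7.

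Genes with the most similar pattern were sought for the 2 members whose log2 range was 0.5 or more, by the distance between log2 values centred on each gene's own mean over the 4 arrays. For Mmut they were Gm20300, a long non-coding RNA gene (distance 0.075), Micu3, a regulator of the mitochondrial calcium uniporter (0.085), and Rasd2, a small GTPase (0.095). For Mcee they were Wdr36, a ribosome biogenesis factor (0.042), Plbd1, a phospholipase B-like protein (0.056), and Arhgap29 (0.062). No pathway gene was among these. The nearest for Mmut was Pccb, at rank 295 and distance 0.497, and the nearest for Mcee was Mmadhc, at rank 218 and distance 0.26. With 4 arrays, many genes match any pattern closely, so the distances describe these arrays only.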

How the data were processed

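Muscle RNA was biotin-labelled and read on Affymetrix arrays, per the labels' protocols, from 4 ug of total RNA. The authors deposited linear intensity values for 41345 transcript clusters on 4 arrays. The steps of background correction, summary and scaling, and the genome build, were not given in the sources used here, so only RefSeq promoter windows carry coordinates. The number of arrays limits the precision.

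Values were turned into log2(intensity + 3.69), the offset being percentile 25 of all values. The array medians lay within 0.035 of each other, so no scaling was added. Those medians lie near the level threshold of 5.81 and say little of brighter genes. Percentile 95 read 195 under vehicle and 207 under STZ in WT, and 189 and 179 in KO. Of the clusters, 23521 had 1 symbol, and 23328 of these matched RefSeq by Entrez number. A gene was read by its brightest cluster and kept if its mean log2 value was above the median of all clusters. Counts were made at 1.5-fold and 2-fold over all genes kept. The members, lists and rules were chosen with earlier results of these data known. Genes named are the 8 members, Klf15, from each other list that holds no cell or fibre markers those at least 1.5-fold different in a KO comparison and up to 3 more with the largest mean difference, the 3 nearest patterns, and, after their values were seen, neighbours and markers. Of the listed genes, 6 were not matched and are not analysed here. Python 3.11.15, pandas 2.3.3 and statsmodels 0.14.6 were used. The steps were tested on simulated data. Alternatives were quantile normalization, median centring, removal of a lowess trend, offsets of 1 and 16, the mean of all clusters, and no or a percentile 75 level filter.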

Additional observations from a re-analysis of the deposited data

Results flagged for a closer look

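Several genes had differences of opposite sign in the 2 settings of the same contrast. With 1 array per group the difference between the settings was not tested, and signs near 0 carry little. STZ minus vehicle on the log2 scale was 0.48 in WT and -0.42 in KO for Mcee, 0.27 and -0.18 for Mmadhc, 0.063 and -0.105 for Mmut, and 0.0015 and -0.044 for Pccb. For Klf15 it was 0.48 in WT and -0.25 in KO. KO minus WT was 0.042 under vehicle and -0.86 under STZ for Mcee, and 0.037 and -0.077 for Mmaa. STZ was higher in WT and lower in KO for 28.6% of all genes.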

How the results depend on the processing

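Over 8 alternatives the counts past 1.5-fold stayed the same in all 5 comparisons: Mmut under vehicle, Mmut and Mcee under STZ, and Mcee for the difference between STZ effects. Mmut ranged from -0.79 to -0.69 under vehicle and from -0.97 to -0.77 under STZ, and Mcee under STZ from -0.89 to -0.71. The median of the 8 for KO minus WT under STZ shrank to -0.15 under quantile normalization and -0.18 with the lowess trend taken out. The median difference between STZ effects, -0.12 as reported, was -0.0097 under quantile normalization. With the lowess trend taken out, 2 of the 8 genes had both KO values below both WT values in place of 4, and 1 had them above in place of 0. Quantile normalization gave 3 below and 1 above, and median centring gave 5 below and 0 above. Pcca, near 0 as reported, stood at 0.15 for KO minus WT under STZ after quantile normalization. The count of genes lowest on the KO STZ array was 6 under quantile normalization and under lowess, and 8 otherwise. STZ minus vehicle in WT changed sign for Mmut (-0.012) and Pccb (-0.059) under quantile normalization. Klf15's difference between STZ effects fell short of 1.5-fold with an offset of 16 (-0.57). The mean of all clusters gave the same members' values by construction, since each has 1 cluster. The changes of level filter also left them as they were, since all 8 genes passed each filter. Those settings could not move the members' counts. No array could be left out. No paired analysis was possible because each group has 1 array. Signal over background limits dim genes: Mmaa read from 18.5 to 25.6, where the level threshold was 5.81.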

Other observations

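The genes next to the members on the chromosome in RefSeq were read as well, chosen after the other values were seen. Cenpq, a kinetochore gene beside Mmut, read 10.7 under vehicle and 8.47 under STZ in WT, and 7.87 and 5.36 in KO, a log2 difference of -0.31 and -0.43 for KO minus WT under vehicle and STZ. It is dim on all 4 arrays. Ptchd4, on the other side of Mmut, did not pass the level filter and stood at 0.23 and -0.15. Mphosph10, beside Mcee, stood at -0.43 and -0.19, where Mcee stood at 0.042 and -0.86. Msl2, beside Pccb, stood at -0.11 and -0.29, and Stag1, on the other side, at 0.021 and -0.26. Mvk, the mevalonate kinase gene beside Mmab, stood at -0.19 in WT and 0.14 in KO for STZ minus vehicle, where Mmab stood at -0.21 and -0.33.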
